A study of Mus musculus with 6 samples.

Results

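The Notch signalling genes examined here are 32 genes that encode Notch receptors, their ligands, the proteases and glycosyltransferases that process them, the nuclear complex, regulators of turnover and target genes, together with Esam, a surface marker of the splenic cDC2 that depend on NOTCH2. They were taken by gene symbol, from probe sets that carry exactly 1 symbol, and all 32 were measured, among 19938 genes in all. Expression was read from 6 Affymetrix gene arrays of conventional dendritic cells (cDC) that had been sorted from the spleens of wild-type (WT) mice. The 3 sorted populations were CD24+ cDC1, which lack CD172a, and the CD172a+ cDC2 with CD24 (CD24+CD172a+) or without it (CD24-CD172a+), with 2 arrays each. Array titles name the last population by CD172a alone, and its lack of CD24, like that of CD172a on cDC1, is given for the series. No treatment is named, and the labels do not give the age or sex of the mice, whether animals were pooled, or whether the 2 arrays of a population came from separate animals. The p-values therefore measure only the spread between these arrays, which may be technical.

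Notch receptors are cut when they bind a Delta-like or Jagged ligand on a neighbouring cell, first by an ADAM protease and then by the gamma-secretase complex. The freed intracellular domain enters the nucleus, joins the DNA-binding protein RBPJ and a Mastermind-like coactivator, and turns on targets such as Hes1, Hey1, Nrarp and Dtx1. In the mouse spleen this pathway is known for its part, through NOTCH2 and RBPJ, in maintaining CD4+ cDC2 that carry ESAM, and NOTCH2 also acts in splenic cDC1.

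Levels are log2 intensities, given array by array, replicate 1 first, or as means ± SD (n = 2 arrays). Intensities of different probe sets cannot be set against each other, so levels were compared between populations only, gene by gene, except in the sums of marker lists. Those sums add linear intensities, so the brightest probe sets weigh most, and they do not measure the amount of a cell type. A difference is the first population's mean log2 intensity minus the second's, with its standard error, and a gene was called when its Benjamini-Hochberg adjusted p from limma, taken over all 19938 genes, was under 0.05. The values come from sorted bulk RNA, in which a change in the share of expressing cells and a change in RNA per cell cannot be told apart. Over all genes the replicate arrays correlated at 0.992 to 0.993, and with 2 arrays a population precision is low. Markers that part cDC1 from cDC2 went with the labels, while the gene for CD24, which parts the cDC2 populations, was not examined. All 8 cDC2 markers, Sirpa (which encodes CD172a), Irf4 and Clec4a4 among them, were called higher in each cDC2 population than in cDC1, and of 8 cDC1 markers such as Xcr1 and Clec9a, 8 were called lower in CD24+CD172a+ and 7 in CD24-CD172a+ cDC2.

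Of the 32 Notch genes, 9 were called between cDC1 and at least 1 cDC2 population, and limma called none between the cDC2 populations, where 1.46% of all genes were called and 7 Notch genes had an unadjusted p under 0.05. Against cDC1, 8 of the 32 genes were called in CD24+CD172a+ cDC2 (25%, against 13.6% of all genes) and 7 in CD24-CD172a+ cDC2 (21.9%, against 15.7% of all genes). The first 8 were 2 higher and 6 lower (7.11% and 6.52% of all genes), and the 7 were 3 higher and 4 lower (6.83% and 8.91% of all genes). Normalising again by quantiles or by cyclic loess turned the latter split to 4 higher and 3 lower. Without CD24+CD172a+ replicate 2 the count of 8 was 4. The median difference of the 32 genes, called or not, was 0.03 and 0.00, beside -0.03 and 0.00 for all genes tested. The shares called were above those of all genes in both comparisons with cDC1. No test of the 32 genes as a set was made, so the counts are a description and nothing particular to Notch genes is read from them. Both comparisons use the same cDC1 arrays. Of the 9 genes, 6 were called in both and in 1 direction: Dtx1 and Maml3 were higher in cDC2, and Notch4, Maml2, Psen2 and Rbpj were lower. Numb and Dtx4 were called for CD24+CD172a+ cDC2 only and Esam for CD24-CD172a+ cDC2 only, but none of these 3 was called when the cDC2 populations were compared directly.

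**Figure D1:**
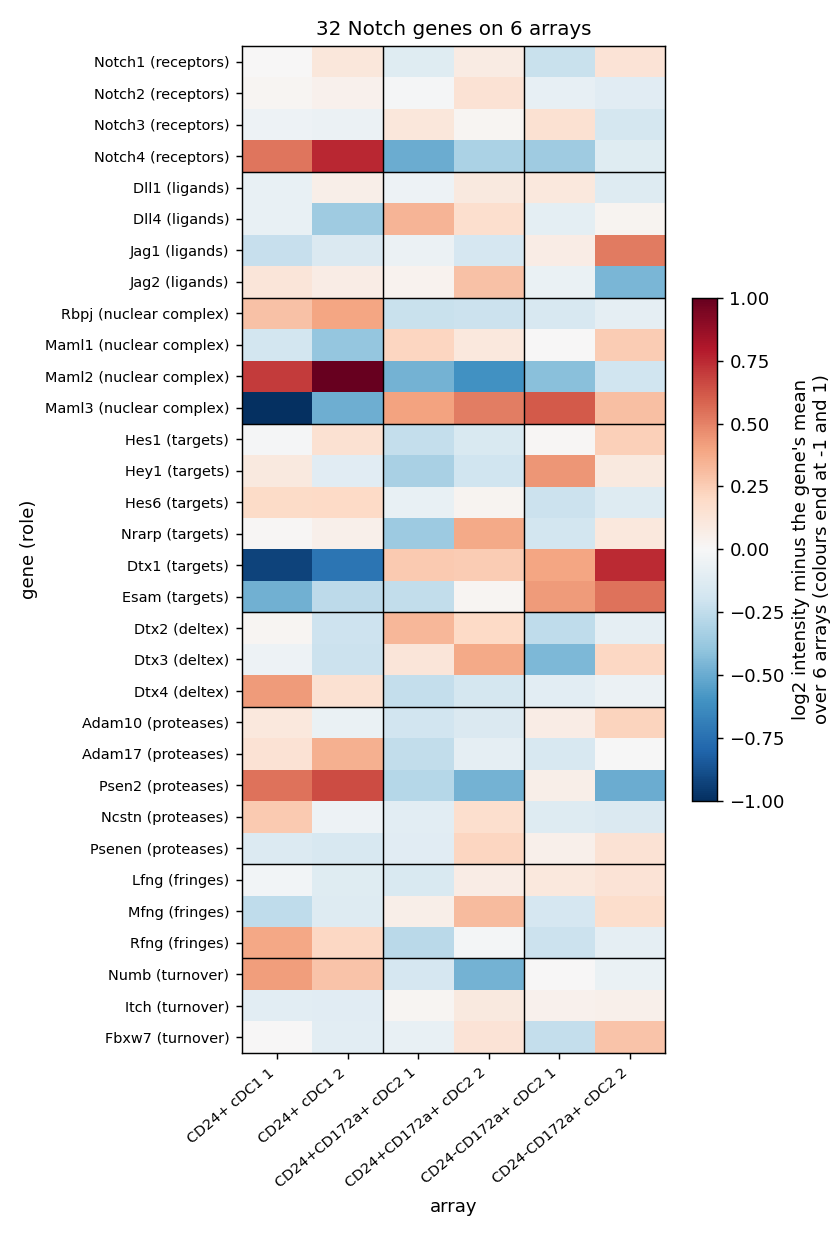
Heat map of 32 Notch genes (rows, grouped by role) on 6 arrays (columns, 2 per population), coloured by the log2 intensity minus the gene's mean over the 6 arrays. Maml3 and Dtx1 are lowest on both cDC1 arrays, Notch4, Maml2 and Psen2 are highest there, and most other rows are pale.

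Of the 4 receptors, 3 were not called in any comparison and Notch4 was lower in both cDC2 populations. Notch2, the receptor on which ESAM+ cDC2 depend, had levels of 7.45 and 7.48 in cDC1, 7.42 and 7.58 in CD24+CD172a+ cDC2 and 7.36 and 7.32 in CD24-CD172a+ cDC2. All 6 arrays lay within a narrow band, with the CD24-CD172a+ arrays lowest and the other populations overlapping. Between the cDC2 populations Notch2 differed by 0.16 ± 0.13 (limma, adjusted p = 0.623), with a 95% interval from -0.12 to 0.44. Its intervals against cDC1 ran from -0.25 to 0.32 for CD24+CD172a+ and from -0.41 to 0.16 for CD24-CD172a+ cDC2. Notch1, which drives T cell fate in the thymus, ranged from 5.11 to 5.46 over the 6 arrays, and Notch3 from 5.44 to 5.77. Notch4, a receptor best known from endothelium, was at 5.53 and 5.75 in cDC1, 4.50 and 4.68 in CD24+CD172a+ cDC2, and 4.64 and 4.88 in CD24-CD172a+ cDC2. Both cDC1 arrays lay above all 4 cDC2 arrays. Notch4 was 2.07-fold lower in CD24+CD172a+ cDC2 (-1.05 ± 0.15, adjusted p = 0.000638) and 1.84-fold lower in CD24-CD172a+ cDC2 (-0.88 ± 0.15, adjusted p = 0.00195) than in cDC1, and both calls held in each of the 6 fits with 1 array left out. The cDC2 levels of Notch4 lay below the median gene (5.04), where background was not examined. Among called genes, so did the means of Maml2 in CD24+CD172a+ cDC2 (4.83) and Maml3 in cDC1 (4.79). The means of Esam in cDC1 (4.73) and CD24+CD172a+ cDC2 (4.98) lay below it too. Of 13 endothelial markers, Flt1 and Lyve1 were called lower in CD24+CD172a+ cDC2 than in cDC1, and Flt1 in CD24-CD172a+ cDC2. None was called higher, while 4 and 5 of the 13 had higher means than in cDC1, in the same order. Their summed intensity was 401 on each cDC1 array, 308 to 318 in CD24+CD172a+ and 315 to 332 in CD24-CD172a+ cDC2. In that sum Flt1 fell most, from a mean log2 of 6.36 in cDC1 to 4.75 and 4.66. The endothelial defining marker Cdh5, which encodes VE-cadherin, ranged from 4.01 to 4.29, and the part of endothelial RNA in the Notch4 difference was not tested.

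None of the 4 ligands was called in any comparison. Dll4, a Delta-like ligand that dendritic cells can show to T cells, was at 4.96 and 4.68 in cDC1, 5.38 and 5.21 in CD24+CD172a+ cDC2, and 4.94 and 5.06 in CD24-CD172a+ cDC2. The CD24+CD172a+ arrays lay above the other 4, and the difference from cDC1 was 0.47 ± 0.14 (adjusted p = 0.0570), which was called with genes under the 25th percentile left out, with cyclic loess and with array weights. Jag1, a Jagged ligand, was at 4.85 and 5.29 in CD24-CD172a+ cDC2 and between 4.55 and 4.71 on the other 4 arrays, a difference from cDC1 of 0.48 ± 0.16 (adjusted p = 0.0694). That difference was called without CD24-CD172a+ replicate 1. Jag2 was at 5.08 and 4.69 in CD24-CD172a+ cDC2 and between 5.18 and 5.44 on the other arrays, with an adjusted p of 0.186 against cDC1. Dll1 stayed between 4.49 and 4.72 on all arrays, and its populations overlapped.

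Of the 4 genes of the nuclear complex, Maml2, Maml3 and Rbpj were called against cDC1 in each cDC2 population, and Maml1 was not. Maml2 and Maml3 encode Mastermind-like coactivators, which bridge the Notch intracellular domain and RBPJ, and they went in opposite directions. Maml2 was at 6.07 and 6.36 in cDC1, 4.90 and 4.76 in CD24+CD172a+ cDC2, and 4.96 and 5.17 in CD24-CD172a+ cDC2. Maml3 was at 4.37 and 5.21 in cDC1, 6.11 and 6.22 in CD24+CD172a+ cDC2, and 6.32 and 6.0 in CD24-CD172a+ cDC2. For both genes the cDC1 arrays lay apart from all cDC2 arrays, although those of Maml3 differed from each other by more than the cDC2 arrays did.

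Maml2 was 2.61-fold lower in CD24+CD172a+ cDC2 than in cDC1 (-1.38 ± 0.15, adjusted p = 0.000101) and 2.22-fold lower in CD24-CD172a+ cDC2 (-1.15 ± 0.15, adjusted p = 0.000377). Its other probe set gave -0.45 and -0.37 and was not called (adjusted p = 0.120 and 0.188), and the mean of both gave -0.91 and -0.76 and was called. Maml3 was 2.59-fold and 2.58-fold higher in the same order (1.37 ± 0.23 in both, adjusted p = 0.00245 and 0.00235). The calls of Maml2 and Maml3 held in each fit with 1 array left out. Maml1, the third coactivator, ranged from 6.43 to 6.68 in cDC2 against 6.25 and 6.04 in cDC1, with differences of 0.45 and 0.41 that were not called (adjusted p = 0.0702 and 0.0842); the second was called with quantile normalisation again or cyclic loess, and both with genes below the median left out.

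Rbpj, the DNA-binding partner of every Notch receptor, was at 9.49 and 9.60 in cDC1, 8.98 and 8.99 in CD24+CD172a+ cDC2, and 9.04 and 9.12 in CD24-CD172a+ cDC2. It was 1.48-fold lower in CD24+CD172a+ cDC2 (-0.56 ± 0.13, adjusted p = 0.0123) and 1.38-fold lower in CD24-CD172a+ cDC2 (-0.47 ± 0.13, adjusted p = 0.0283). The cDC1 arrays were the highest of the 6, but these calls were fragile. For CD24+CD172a+ cDC2 the call was lost when cDC1 replicate 2 was dropped (-0.51, adjusted p = 0.0919), when replicate 1 or 2 of CD24+CD172a+ was dropped (-0.55 and -0.57, adjusted p = 0.0729 and 0.0669), and with the mean of both Rbpj probe sets (-0.45, adjusted p = 0.0568). For CD24-CD172a+ cDC2 it was lost when replicate 1 or 2 of cDC1 was dropped (-0.52 and -0.42, adjusted p = 0.0838 and 0.157) and when replicate 1 or 2 of CD24-CD172a+ was dropped (-0.43 and -0.51, adjusted p = 0.116 and 0.0662). It was also lost with quantile normalisation again (-0.39, adjusted p = 0.0618), with cyclic loess (-0.40, adjusted p = 0.0586) and with the mean of both probe sets (-0.30, adjusted p = 0.207). The other Rbpj probe set in that mean was dim, at 3.02 over the arrays against 9.20 for the one used. This is under the 25th percentile of genes (3.94), so the 2 means of both probe sets weigh little.

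**Figure D2:**
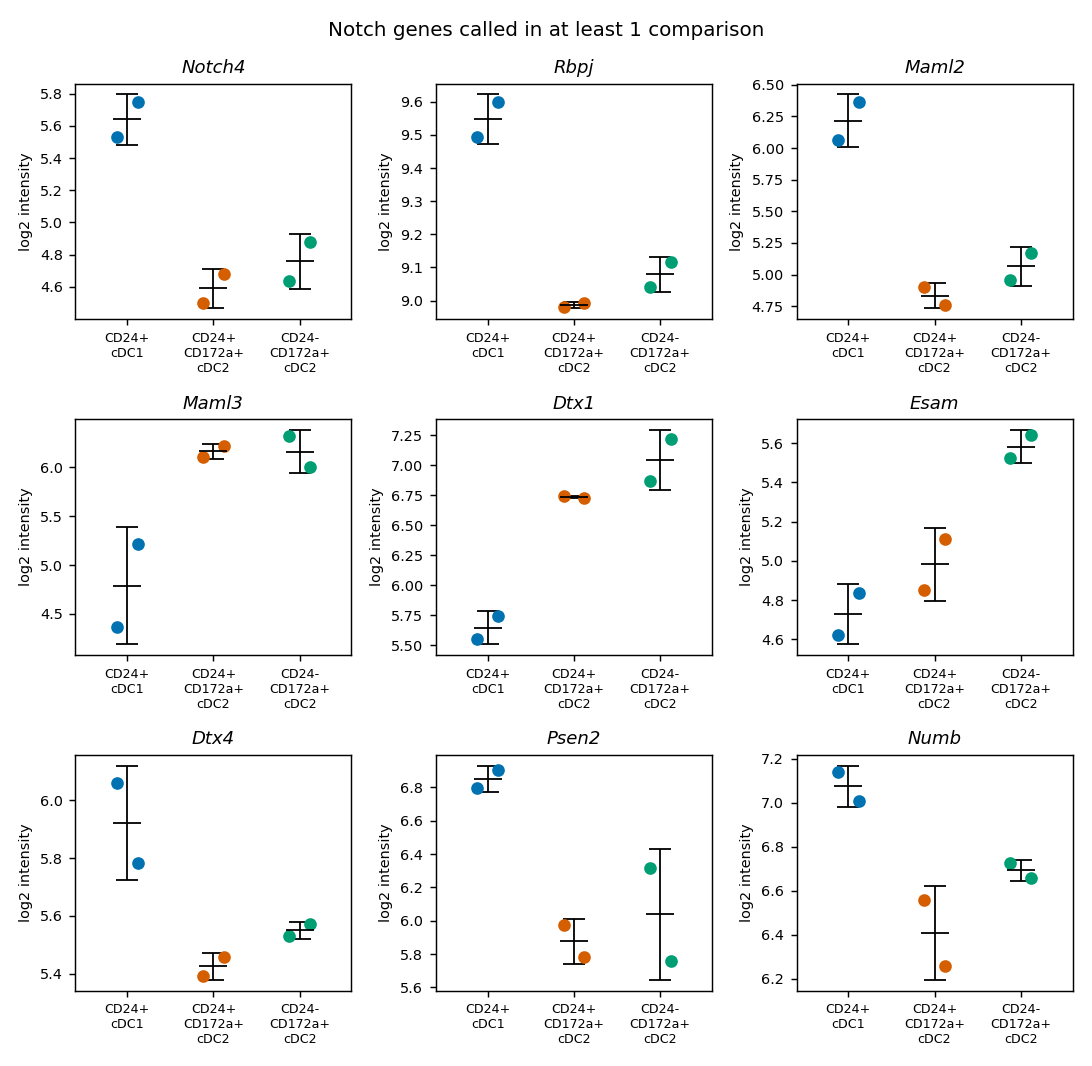
Log2 intensity of the 9 Notch genes called in at least 1 comparison, by population. Coloured points are single arrays (2 per population, replicate 1 on the left), and black bars give the mean and SD; the vertical axes differ between panels and do not start at 0. Maml3 and Dtx1 lie lowest in cDC1, Notch4, Rbpj, Maml2, Dtx4, Psen2 and Numb lie highest there, and Esam is highest in CD24-CD172a+ cDC2.

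RBPJ binds DNA at a core that reads TGGGAA. The 250 bases before the start site are shown for 5 genes called against cDC1 in both cDC2 populations, because Maml2 and Maml3 moved in opposite directions while both hold that core, and Rbpj and Psen2 hold it too, whereas Dtx1, a known target, does not. Of the 7 called genes with a listed promoter, Rbpj, Maml2, Maml3 and Psen2 are the 4 that hold it in at least 1 window. Of all 25 Notch genes with a listed promoter, 7 hold it. No share by gene was taken over all genes, so nothing is read from these counts. Notch4 and Numb, which do not hold it, are not shown. The sequences come from RefSeq (GRCm38.p6), run 5′ to 3′ on the gene's strand, and carry capitals at each TGGGAA or its reverse complement TTCCCA. They lie at chr5:53590096-53590345 on the plus strand (Rbpj), chr9:13662210-13662459 on the plus strand (Maml2), chr3:52105007-52105256 on the minus strand (Maml3), chr1:180245951-180246200 on the minus strand (Psen2) and chr5:120711670-120711919 on the minus strand (Dtx1). Where a gene has several start sites, the one listed first among those with the core is shown. Maml2 and Psen2 each have 2 start sites listed, and only the window shown held the core.
Rbpj: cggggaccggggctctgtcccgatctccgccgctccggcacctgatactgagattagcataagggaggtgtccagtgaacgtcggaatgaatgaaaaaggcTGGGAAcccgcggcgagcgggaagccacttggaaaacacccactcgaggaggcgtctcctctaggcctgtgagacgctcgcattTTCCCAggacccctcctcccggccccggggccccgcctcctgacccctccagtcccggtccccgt
Maml2: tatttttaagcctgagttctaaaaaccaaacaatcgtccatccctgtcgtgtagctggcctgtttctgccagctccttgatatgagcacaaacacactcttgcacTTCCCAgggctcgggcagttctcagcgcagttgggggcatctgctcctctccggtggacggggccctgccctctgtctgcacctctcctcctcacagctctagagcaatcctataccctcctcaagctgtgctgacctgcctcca
Maml3: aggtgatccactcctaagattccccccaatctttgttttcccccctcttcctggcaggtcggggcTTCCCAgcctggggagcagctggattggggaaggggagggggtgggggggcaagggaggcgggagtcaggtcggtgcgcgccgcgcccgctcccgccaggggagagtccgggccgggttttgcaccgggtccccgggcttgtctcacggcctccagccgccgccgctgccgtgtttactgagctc
Psen2: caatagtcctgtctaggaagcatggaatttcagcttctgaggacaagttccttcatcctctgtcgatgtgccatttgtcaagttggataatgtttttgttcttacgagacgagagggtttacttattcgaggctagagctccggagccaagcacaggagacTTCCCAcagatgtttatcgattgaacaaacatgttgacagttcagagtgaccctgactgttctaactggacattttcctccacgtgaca
Dtx1: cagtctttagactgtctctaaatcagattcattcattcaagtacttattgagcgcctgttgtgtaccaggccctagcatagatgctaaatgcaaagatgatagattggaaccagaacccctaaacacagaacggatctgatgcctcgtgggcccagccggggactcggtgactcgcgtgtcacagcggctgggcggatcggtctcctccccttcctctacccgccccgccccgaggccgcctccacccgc
The core stood 185 bases upstream of the start in Maml3, 145 in Maml2 and 89 in Psen2, and at 149 and 65 bases in the Rbpj window shown. The Dtx1 window held none, which says only that these letters are not in this stretch.

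Promoters were listed for 25 of the 32 genes, in 35 windows. The core, searched on both strands, was found in 8 of these windows (22.9%) and in 21.6% of all 32851 windows of that length, so Notch gene promoters held it about as often as promoters at large. It was found for 7 genes, which are Rbpj, Maml2, Maml3, Psen2, Psenen, Dtx2 and Lfng. The longer form GTGGGAA, which contains the core, stood in 2 windows (Lfng and Psen2), against 5.42% of all windows. The form CGTGGGAA, which contains both, stood in that of Lfng alone, against 0.636% of all windows. A match is a string of letters and does not show that RBPJ binds there.

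In the group of 6 that holds the target genes and the marker Esam, Dtx1 was called higher than in cDC1 in both cDC2 populations. Esam was called higher in the population without CD24, and the other 4 were not called. Dtx1, a Notch target that encodes the ubiquitin ligase Deltex 1, was at 5.55 and 5.74 in cDC1, 6.74 and 6.73 in CD24+CD172a+ cDC2, and 6.87 and 7.22 in CD24-CD172a+ cDC2. All 4 cDC2 arrays lay above both cDC1 arrays. Dtx1 was 2.13-fold higher in CD24+CD172a+ cDC2 (1.09 ± 0.15, adjusted p = 0.000608) and 2.63-fold higher in CD24-CD172a+ cDC2 (1.40 ± 0.15, adjusted p = 0.000102), and both calls held in each fit with 1 array left out. Between the cDC2 populations it differed by -0.31 ± 0.15 (adjusted p = 0.397). B cells also express Dtx1. Of 8 B cell markers measured, 3 were called higher and 1 lower in CD24+CD172a+ cDC2 than in cDC1, and 2 higher and 1 lower in CD24-CD172a+ cDC2, while their summed intensity was 249 to 291 in cDC1, 253 to 261 in CD24+CD172a+ and 244 to 253 in CD24-CD172a+ cDC2. The B cell genes Blk and Fcer2a were higher in both cDC2 populations, as Dtx1 was: Blk, a kinase of B cell receptor signalling, by 1.16 ± 0.17 and 1.03 ± 0.17 (adjusted p = 0.000784 and 0.00154), and Fcer2a, which encodes CD23, by 0.73 ± 0.15 and 0.63 ± 0.15 (adjusted p = 0.00678 and 0.0148). Cd79b, a chain of the B cell receptor, was higher in CD24+CD172a+ cDC2 (0.57 ± 0.16, adjusted p = 0.0442). Ms4a1, which encodes CD20, fell by 1.52 ± 0.20 and 1.38 ± 0.20, and the summed intensity holds both directions. Cd79a, Pax5 and Ebf1 were not called in any comparison, and the part of B cell RNA in the Dtx1 values was not tested.

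Esam, which encodes an adhesion molecule of the immunoglobulin superfamily, was at 4.62 and 4.84 in cDC1, 4.85 and 5.11 in CD24+CD172a+ cDC2, and 5.52 and 5.64 in CD24-CD172a+ cDC2. Both CD24-CD172a+ arrays lay above all others, and the CD24+CD172a+ arrays lay just above those of cDC1. Esam was 1.81-fold higher in CD24-CD172a+ cDC2 than in cDC1 (0.86 ± 0.15, adjusted p = 0.00226), a call that held in each fit with 1 array left out. In CD24+CD172a+ cDC2 its difference from cDC1 was 0.25 ± 0.15 (adjusted p = 0.346). Between the cDC2 populations it was 1.52-fold lower in CD24+CD172a+ cDC2 (-0.60 ± 0.15, 95% interval from -0.92 to -0.28), the smallest p of the 32 genes there, which was not called (adjusted p = 0.0830) but was with genes below the median left out (adjusted p = 0.0453). Endothelial cells and platelets express Esam too. Between the cDC2 populations none of the 13 endothelial and 4 platelet markers was called. Only 1.46% of all genes were called there, so the lack of calls says little. The summed intensity of these 4 of 8 listed platelet genes was 82.4 to 85.0 in cDC1, 74.5 to 78.8 in CD24+CD172a+ and 78.8 to 81.7 in CD24-CD172a+ cDC2. Of 10 macrophage markers, 5 were called lower in CD24+CD172a+ than in CD24-CD172a+ cDC2, with summed intensities of 2302 to 2606 against 3062 to 3219, and of 8 plasmacytoid markers 3 were called higher, with 774 to 792 against 511 on each array. Against cDC1, 5 macrophage markers were called higher and 1 lower in CD24-CD172a+ cDC2, where the cDC1 sums were 1982 to 2018. The part of endothelial, platelet, macrophage or plasmacytoid RNA in the Esam values was not tested. Of 7 T cell and 7 stromal markers, Cd3d alone was called, higher in CD24-CD172a+ cDC2 than in cDC1.

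Among the other targets, Hes1, a transcriptional repressor, was at 5.96 and 6.12 in cDC1, 5.73 and 5.82 in CD24+CD172a+ cDC2, and 5.98 and 6.21 in CD24-CD172a+ cDC2. The CD24+CD172a+ arrays were the lowest, by -0.32 ± 0.14 from CD24-CD172a+ cDC2 (adjusted p = 0.334) and by -0.27 ± 0.14 from cDC1 (adjusted p = 0.287). Hey1, a related repressor, was likewise lowest in CD24+CD172a+ cDC2, at 4.99 and 5.12 against 5.76 and 5.41 in CD24-CD172a+ cDC2 (-0.53 ± 0.15, adjusted p = 0.141) and 5.41 and 5.21 in cDC1. Hes6, which opposes HES1, was at 5.70 on both cDC1 arrays and from 5.29 to 5.53 in cDC2, and the difference of CD24-CD172a+ cDC2 from cDC1 was -0.37 ± 0.13 (adjusted p = 0.0796). It was called with genes below the median left out and with 16 added to each value before the log. Nrarp, a feedback inhibitor, ranged from 3.59 to 4.34, near the 25th percentile of all genes (3.94), and its CD24+CD172a+ arrays, at those 2 extremes, spanned all others. Dtx1 was thus the only target called in any comparison, beside the marker Esam.

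Of the other Deltex genes, Dtx4, a ubiquitin ligase of the same family, was at 6.06 and 5.78 in cDC1, 5.39 and 5.46 in CD24+CD172a+ cDC2, and 5.53 and 5.57 in CD24-CD172a+ cDC2. It was 1.41-fold lower in CD24+CD172a+ cDC2 than in cDC1 (-0.50 ± 0.14, adjusted p = 0.0365), a call that ended with cDC1 replicate 1 dropped (-0.36, adjusted p = 0.269) and with either CD24+CD172a+ array dropped (-0.46 without replicate 1 and -0.53 without replicate 2, adjusted p = 0.179 and 0.119). Dtx1 and Dtx4 thus differed from cDC1 in opposite directions in CD24+CD172a+ cDC2. Dtx2 was at 5.68 and 5.55 in CD24+CD172a+ cDC2 and from 5.10 to 5.38 on the other arrays, and it was not called (0.44 ± 0.14 against CD24-CD172a+ cDC2, adjusted p = 0.181). Dtx3 ranged from 5.53 to 6.36, with both of those extremes in cDC2.

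Of 5 protease genes, Psen2 was called, and the others were not. Psen2 encodes presenilin 2, a catalytic subunit of gamma-secretase, and was at 6.80 and 6.91 in cDC1, 5.97 and 5.78 in CD24+CD172a+ cDC2, and 6.32 and 5.76 in CD24-CD172a+ cDC2. Both cDC1 arrays lay above all cDC2 arrays. It was 1.97-fold lower in CD24+CD172a+ cDC2 (-0.97 ± 0.18, adjusted p = 0.00394) and 1.76-fold lower in CD24-CD172a+ cDC2 (-0.81 ± 0.18, adjusted p = 0.0107). The first call was lost with CD24+CD172a+ replicate 2 dropped (-0.88, adjusted p = 0.0506). The second was lost with replicate 2 of cDC1 (-0.76) or of CD24-CD172a+ cDC2 (-0.53) dropped, at an adjusted p of 0.0692 and 0.0673. The subunit genes Ncstn, for nicastrin (7.30 to 7.71), and Psenen, for PEN-2 (10.11 to 10.48), differed from cDC1 by between -0.24 and 0.25. Adam17, one of the sheddases, was at 8.01 and 8.22 in cDC1 and from 7.62 to 7.87 in cDC2, with differences of -0.42 and -0.33 (adjusted p = 0.0779 and 0.154), of which the first was called with an intensity trend, with 16 added, and with genes below the median left out. Adam10, the sheddase that cuts ligand-bound Notch, ranged from 6.99 to 7.40, and its difference between the cDC2 populations was -0.31 ± 0.13 (adjusted p = 0.322).

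The 3 Fringe genes, which encode glycosyltransferases that tune the choice of ligand, were not called. Lfng stayed between 8.61 and 8.90 and Mfng between 5.03 and 5.61. Rfng was at 6.25 and 6.07 in cDC1 and from 5.59 to 5.85 in cDC2, with differences of -0.44 ± 0.14 and -0.45 ± 0.14 (adjusted p = 0.0722 and 0.0589). It was called in both with genes below the median left out, and in CD24-CD172a+ cDC2 also with genes under the 25th percentile left out and with 16 added. Among regulators of turnover, Numb, an endocytic adaptor that restrains Notch, was at 7.14 and 7.01 in cDC1, 6.56 and 6.26 in CD24+CD172a+ cDC2, and 6.73 and 6.66 in CD24-CD172a+ cDC2. The cDC1 arrays lay highest, and Numb was 1.59-fold lower in CD24+CD172a+ cDC2 (-0.67 ± 0.14, adjusted p = 0.00951), a call lost with cDC1 replicate 1 (-0.60) or CD24+CD172a+ replicate 2 (-0.52) dropped, at an adjusted p of 0.0800 and 0.0963. In CD24-CD172a+ cDC2 the difference was -0.38 ± 0.14 (adjusted p = 0.109). Itch (8.23 to 8.45) and Fbxw7 (7.27 to 7.79) encode a ubiquitin ligase and the substrate receptor of another. At the probe sets used they differed by at most 0.17 in any comparison. The other Fbxw7 probe set gave -0.25 in CD24-CD172a+ cDC2 against cDC1 and was not called (limma, adjusted p = 0.228).

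**Figure D3:**
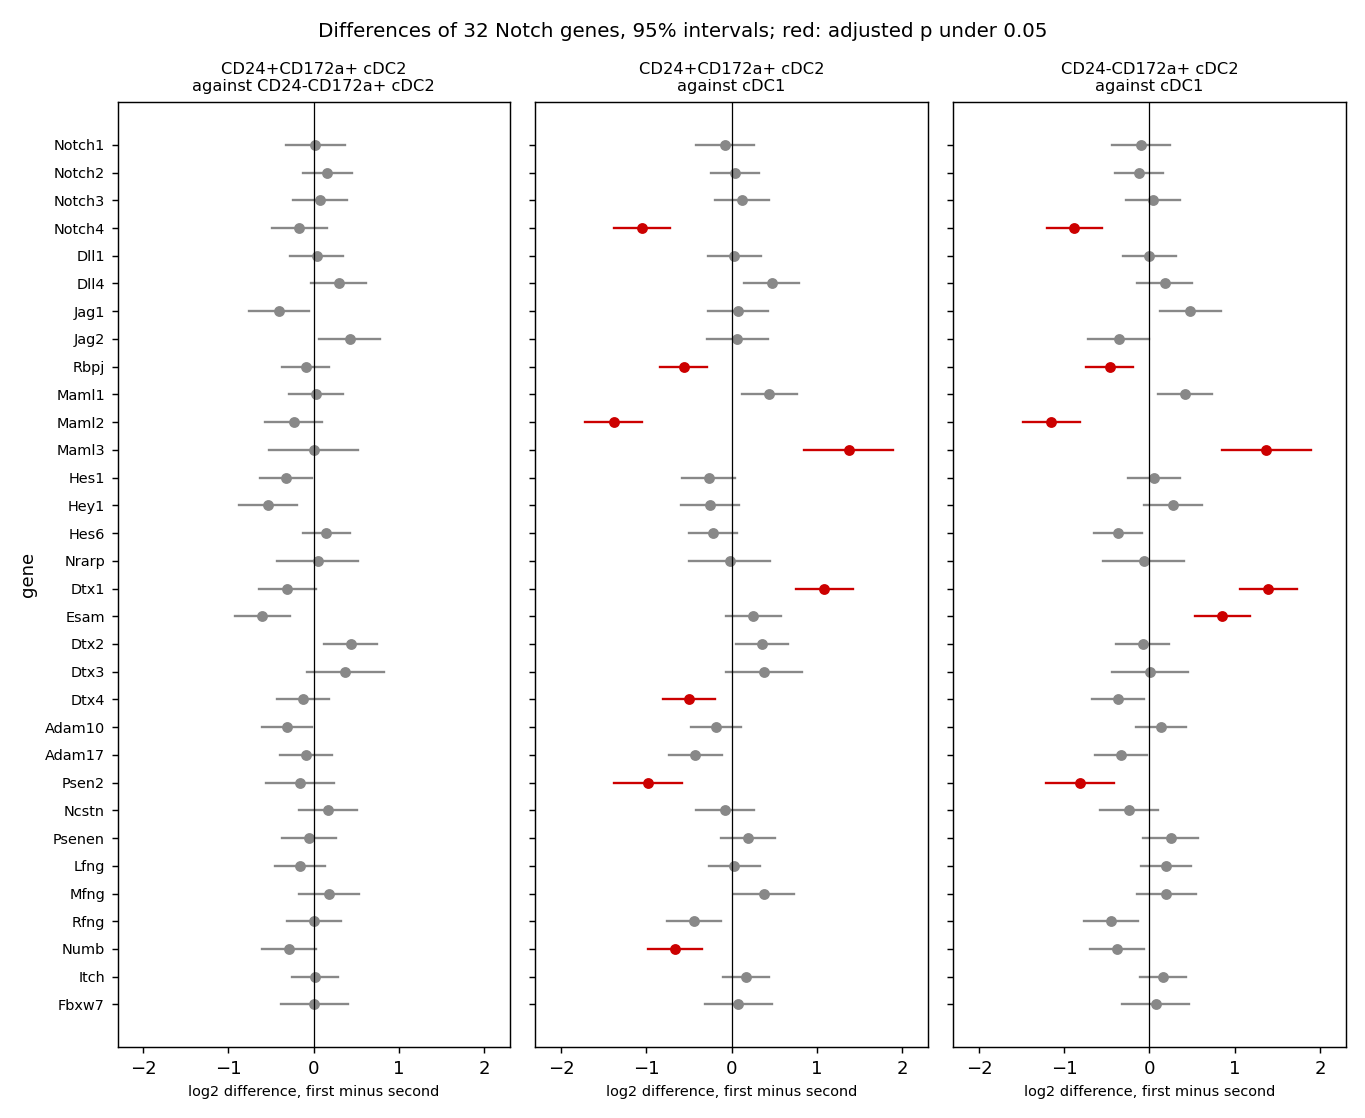
Log2 differences of the 32 Notch genes in the 3 comparisons, first population minus second, with 95% intervals from limma; red marks an adjusted p under 0.05. No gene is red between the cDC2 populations, 8 are red in the middle panel and 7 in the right panel, with Maml2 far to the left and Maml3 and Dtx1 to the right.

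Between CD24+CD172a+ and CD24-CD172a+ cDC2, limma called none of the 32 Notch genes, against 1.46% of all genes (0.808% called higher, 0.652% lower). At an unadjusted p under 0.05 there were 7 (21.9%, against 14.0% of all genes): Esam, Hey1, Jag1, Hes1 and Adam10 with lower and Jag2 and Dtx2 with higher means in CD24+CD172a+ cDC2. Differences ran from -0.60 to 0.44 with a median of 0.00, and the median half-width of their 95% intervals, which are not adjusted for the number of genes, was 0.32. Larger differences than that, up to the -0.60 of Esam, were not called after adjustment. Of 6 genes of ESAM-high cDC2 (Cd4, Clec4a4, Esam, Dtx1, Rbpj and Notch2), none was called. Cd4, at -0.41 ± 0.13, and the lectin gene Clec4a4, at -0.49 ± 0.16, had lower means in CD24+CD172a+ cDC2, as Esam did (limma, adjusted p = 0.173 and 0.183). Dtx1 (-0.31) and Rbpj (-0.09) also had lower means there, while Notch2 went the other way (0.16). Of 6 genes of ESAM-low cDC2 (Cx3cr1, Ccr2, Csf1r, Csf3r, Lyz2 and Cd14), only Lyz2, which encodes lysozyme M, was called. It was lower in CD24+CD172a+ cDC2 (-1.09 ± 0.14, adjusted p = 0.00755). That call was lost with CD24+CD172a+ replicate 1 dropped (-0.93) or with CD24-CD172a+ replicate 2 dropped (-1.06). Lyz2 was itself highest in cDC1 (mean 11.6, against 10.2 in CD24+CD172a+ and 11.3 in CD24-CD172a+ cDC2). Csf3r and Cd14 also had lower means in CD24+CD172a+ cDC2 (5.42 against 5.89 and 8.85 against 9.27). Cx3cr1, Ccr2 and Csf1r had higher means there (6.63 against 6.38, 6.25 against 6.02 and 8.54 against 8.37).

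The wider pathway was covered by 53 measured genes of a further list of 56. They took in other ligands, proteases, glycosyltransferases with Chac1 grouped beside them, regulators of ligand endocytosis, targets, coactivators, corepressors and other regulators. Against cDC1, 8 were called in CD24+CD172a+ cDC2 (3 higher, 5 lower; 15.1%, against 13.6% of all genes) and 10 in CD24-CD172a+ cDC2 (4 higher, 6 lower; 18.9%, against 15.7% of all genes), with medians of -0.06 in both. limma called none between the cDC2 populations, against 1.46% of all genes, and 7 had an unadjusted p under 0.05 (14.0% of all genes). These shares are near those of all genes. None of the 7 other target genes, Hes5, Heyl and Ptcra among them, was called in any comparison.

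Kat2b, a histone acetyltransferase that joins Notch coactivator complexes, fell by 1.64 ± 0.13 in CD24+CD172a+ cDC2 (adjusted p = 1.07e-05) and by 1.19 ± 0.13 in CD24-CD172a+ cDC2 (adjusted p = 0.000119). Poglut1, which adds glucose to the EGF repeats of Notch, fell by 1.29 ± 0.15 and 1.12 ± 0.15. Spen, a corepressor that binds RBPJ, fell by 0.46 ± 0.13 and 0.72 ± 0.13. The other 3 genes named rose in both populations. Neurl3, of the Neuralized family, rose by 1.47 ± 0.15 and 1.21 ± 0.15, Neurl2, of the same family, by 0.84 ± 0.13 and 0.87 ± 0.13, and the Groucho-type corepressor gene Tle3 by 0.95 ± 0.13 and 1.04 ± 0.13. Adjusted p-values of these 5 genes lay between 7.5e-05 and 0.00255, with Spen in CD24+CD172a+ cDC2 as the exception given next. These 6 genes kept both calls in every fit with 1 array left out, except Spen in CD24+CD172a+ cDC2 (adjusted p = 0.0346), whose call was lost with any of the 4 arrays compared dropped (-0.44 to -0.48, adjusted p from 0.120 to 0.153).

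Aph1c, for another gamma-secretase subunit, was chosen for description after its values were seen, because it had the smallest p of that list between the cDC2 populations. It was at 8.95 and 8.83 in cDC1, 8.54 and 8.15 in CD24+CD172a+ cDC2, and 9.10 and 9.02 in CD24-CD172a+ cDC2. The CD24+CD172a+ arrays were the lowest of the 6. Aph1c was lower there than in cDC1 (-0.55 ± 0.15, adjusted p = 0.0377), a call lost with replicate 1 (-0.49) or 2 (-0.61) of cDC1 or with CD24+CD172a+ replicate 2 (-0.35) dropped, at an adjusted p of 0.201, 0.0970 and 0.270, and with quantile normalisation again (-0.54, adjusted p = 0.0510). Against CD24-CD172a+ cDC2 its difference of -0.72 ± 0.15 was not called (adjusted p = 0.0533), although it was with genes under the 25th percentile or below the median left out, with cyclic loess and with an intensity trend (adjusted p from 0.0145 to 0.0433). Aph1b is a close paralog of Aph1c, and whether their probes share signal was not examined. Aph1a and Aph1b were not called in any comparison.

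**Figure D4:**
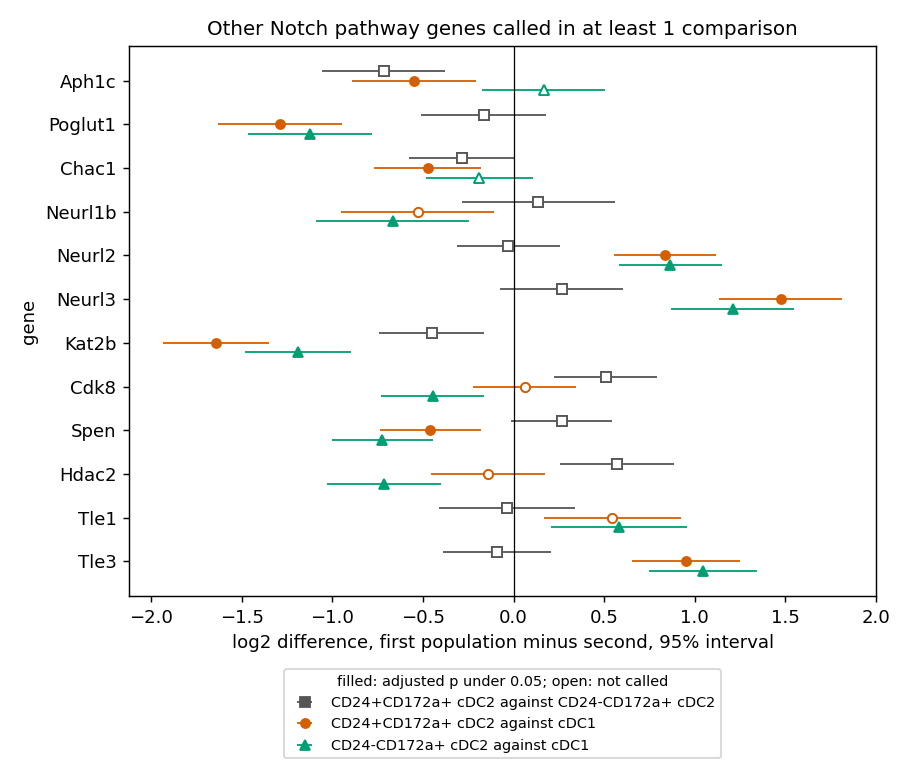
Log2 differences with 95% intervals of the 12 other Notch pathway genes called in at least 1 comparison; squares, circles and triangles stand for the 3 comparisons, filled where the adjusted p was under 0.05 and open where it was not. All squares, which compare the cDC2 populations, are open, and Kat2b and Poglut1 lie on the left and Neurl3, Neurl2 and Tle3 on the right in both comparisons with cDC1.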

How the data were processed

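Total RNA was column-extracted and labelled as biotinylated cDNA with the Affymetrix WT Pico kit, per the labels' protocols. The deposited values are RMA intensities from Affymetrix Expression Console, per the submitters' processing notes; versions and a genome build are not given in the sources used here. Their range shows a linear scale (array medians 29.5 to 30.6), so log2 was taken with no pseudocount. RMA normalises between arrays by quantiles, which assumes like overall distributions. Scanner files, background and scan dates were not analysed here.

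Of 28853 probe sets, 21789 with 1 gene symbol were used, and 1621 with several and 5443 with none were left out. The brightest probe set stood for each gene (4 Notch genes had 2), with no filter on dim genes. Populations were compared with limma 3.58.1 (R 4.3.3, lmFit and eBayes without trend, 6 arrays in 1 fit, 3 residual degrees of freedom). The code was tried on simulated data with normal noise at limma's own variances. Such data meet the method's assumptions, so they do not show whether the 2 arrays of a population are true replicates. The members and lists were chosen with earlier results of these data known. Every Notch gene called is given in full, the others by levels, and up to 6 further pathway genes per comparison by smallest p; levels were not ranked between genes. Alternatives covered filters, probe set choice, normalisation, variance, a replicate block and leaving out each array. Figures used matplotlib 3.10.9.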

Additional observations from a re-analysis of the deposited data

How the results depend on the processing

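No called difference of a Notch gene changed sign under the 12 alternatives or the 6 fits with 1 array left out. Between the cDC2 populations the count of Notch genes called was 0 in 10 alternatives and 1 (Esam) in the other 2, which were leaving out genes below the median and the replicate block; leaving out 1 array gave 0 to 0. Against cDC1 it ran from 7 to 10 for CD24+CD172a+ cDC2 (4 to 8 with 1 array left out) and from 6 to 9 for CD24-CD172a+ cDC2 (5 to 7). A fit that drops an array of the population not compared gives the same result for either of its arrays. With 1 array of a population left, that array was assumed to vary like the others. Leaving out genes below the median removed 5 of the 32, Notch4 among them. Same-numbered arrays correlated in their deviations from the group mean at 0.149, 0.00468 and 0.0778 for the 3 pairs of populations, so they were taken to share only a number; with the replicate block the counts against cDC1 stayed at 8 and 7, and Esam between the cDC2 populations had an adjusted p of 0.0447 and Aph1c of 0.0295. Alternatives for the 7 further pathway genes and Lyz2 were chosen after seeing the data. Signal over background was not examined, so differences of dim genes may be compressed.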
